A study of Homo sapiens with 8 samples.

Results

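The comparison set cells that carried IRF5-4D together with IKKβ(EE) against cells that carried IRF5-4D alone, and so asked what the added kinase did to expression across all genes. Its members were taken from the sample labels: the 2 arrays labelled with both constructs (the combination) and the 2 labelled with IRF5-4D, which are 4 of the 8 arrays of the series. The cells were Reh, an established line that grew out of an acute lymphoblastic leukaemia of B cell precursors, and total RNA was hybridised to Affymetrix U133 Plus 2.0 arrays. IRF5-4D is described by the submitters as a constitutively active form of IRF5, and IKKβ(EE) as a constitutively active form of the IκB kinase β. The remaining arrays were 2 of cells with control constructs (mock) and 2 of cells with IKKβ(EE) alone, and every group shared the cell line and the transfection. The arrays of a group are biological duplicates by the submitters' account and carry the numbers 1 and 3. Promoters and vectors, the time to harvest, the share of transfected cells and what the numbers stand for are not stated in the labels, so p values measure only the spread between these arrays. In such bulk RNA more cells that respond and more RNA per responding cell cannot be told apart.

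IKKβ is the kinase, encoded by IKBKB, that phosphorylates the IκB inhibitors and so frees NF-κB dimers to enter the nucleus. IRF5 belongs to the interferon regulatory factors, which bind GAAA repeats in DNA. It becomes active on phosphorylation, and is best known from the induction of inflammatory cytokines and type I interferon downstream of Toll-like receptors. IKKβ is itself known as a kinase of IRF5. NF-κB and IRF5 are both active in the tumour cells of classical Hodgkin lymphoma, which have lost much of their B cell programme.

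Values are log2 RMA levels, 1 probe set for each of 19775 genes, and a difference is the combination minus IRF5-4D on that scale with its moderated standard error (SE) from limma. A gene was called, and is said to have risen or fallen, at a Benjamini-Hochberg adjusted p under 0.05 over all genes. Of all genes 1.41% were called. The arrays were alike in scale, with lower quartiles from 3.67 to 3.73, and arrays of 1 group correlated at 0.994 to 0.997 across genes. Of the 11 measured defining markers of precursor B-cell leukaemia none lay under the lower quartile of any array, and their mean level ran from 11.2 to 11.5. Of 20 myeloid markers between 4 and 7 lay under that quartile on an array, their mean level ran from 4.44 to 4.61, and 0 were called. The mean over 22 T and NK cell markers ran from 5.13 to 5.33, and GATA3 was the 1 member called (4.55%). On an array 0 or 1 of the 22 lay under that quartile. The mean over 20 stromal and epithelial markers was 5.38 and 5.40 with IRF5-4D against 5.68 and 5.60 in the combination. Of these 20, 4 or 5 lay under the quartile on an array, and CDH1 and ACTA2 were called (10%). A level above the quartile therefore does not mark a cell type as present. The part of other cell types in the results was not tested.

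The added construct was read by 1 of the 3 probe sets for IKBKB. It lay at 4.68 and 4.60 on the IRF5-4D arrays 1 and 3 and at 11.11 and 9.33 on the combination arrays, a difference of 5.58 (SE 0.59, limma adjusted p = 0.00325 in a fit of every probe set). Both combination arrays were far above both IRF5-4D arrays, and array 1 lay above array 3. The other IKBKB probe sets differed by 0.11 and 0.23, and neither was called. IRF5 itself read 7.15 and 7.25 with IRF5-4D and 8.0 and 7.82 in the combination, a rise of 0.71 (SE 0.13, adjusted p = 0.0322). Its other probe sets differed by -0.07 and 0.23. The labels do not say whether any IRF5 probe set reads the transfected construct, so IRF5 does not check the IRF5-4D label.

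Adding IKKβ(EE) to IRF5-4D raised many more genes than it lowered. In limma 242 genes rose and 37 fell, which are 1.22% and 0.187% of all genes tested, and 2433 genes had an unadjusted p under 0.05. The rises ran from 0.59 to 6.07 with a median of 1.16, and 55 genes rose at least 4-fold and 17 at least 8-fold. The falls were smaller, with a median of -0.81 and the largest at -2.77. Genes at least 2-fold apart numbered 154 among the rises (0.779% of all genes) and 14 among the falls (0.0708%). Of the genes that rose 8 had an IRF5-4D mean under 3.70, the median lower quartile of the arrays. By their mean over all arrays 3271 of all 19775 genes lay under it. That quartile is no detection limit, and a fit of only genes above the median level had 128 rises. The counts depended on the IRF5-4D arrays: when array 1 of that group was left out 66 genes rose and 4 fell, and when array 3 was, 60 rose and 10 fell. Without combination replicate 1 the counts were 146 and 27, and without combination replicate 3 they were 234 and 18. Without either IKKβ(EE) array 175 rose and 20 fell. In all 8 fits that left out 1 array 50 of the 242 and 4 of the 37 kept the call.

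**Figure D1:**
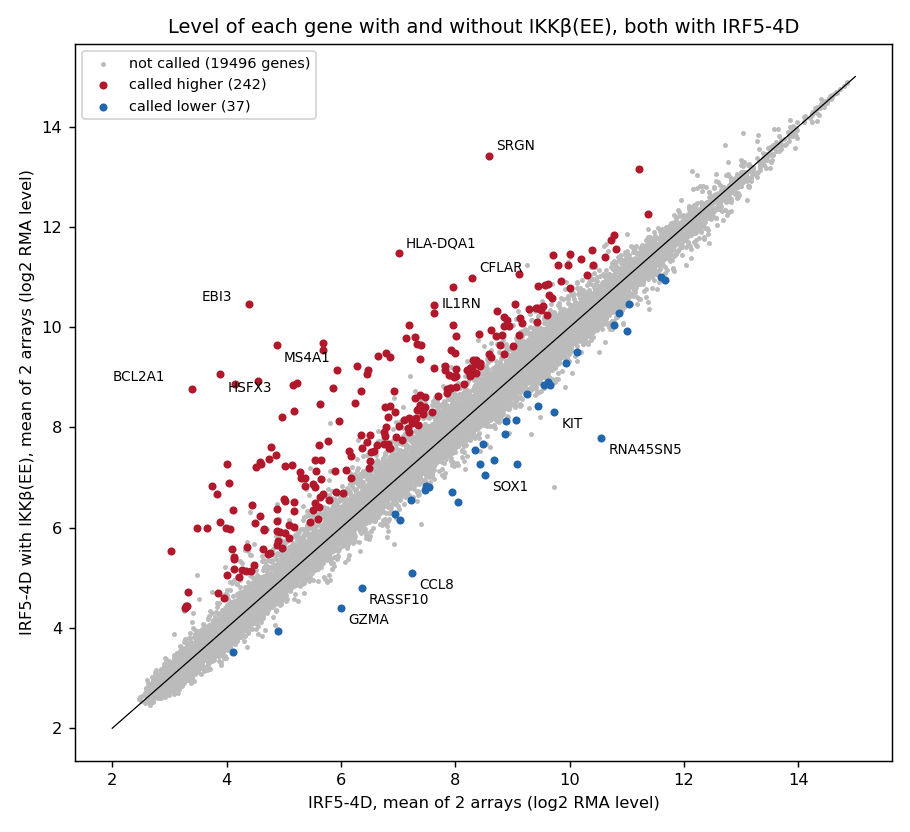
Mean log2 RMA level of each of 19775 genes with IRF5-4D (horizontal axis) and with IRF5-4D plus IKKβ(EE) (vertical axis), 2 arrays each; the line marks equal levels. The 242 genes called higher in limma (red) reach farther from the line, up to 6.07 for EBI3, than the 37 called lower (blue), down to -2.77 for RNA45SN5.

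The largest rise was in EBI3, the shared subunit of the cytokines IL27 and IL35. EBI3 read 4.38 and 4.40 with IRF5-4D and 10.99 and 9.92 in the combination, a 67-fold rise of 6.07 (SE 0.34, limma adjusted p = 0.000151). BCL2A1, an anti-apoptotic member of the BCL2 family, went from 3.21 and 3.58 to 9.64 and 7.91, a rise of 5.38 (SE 0.46). Neither EBI3 nor BCL2A1 lay higher with IRF5-4D than the range of the mock arrays, which read 3.86 and 4.62 for EBI3 and 3.54 and 3.63 for BCL2A1. HSFX3, a gene of the heat shock factor family on the X chromosome, went from 4.07 and 3.71 to 9.55 and 8.57, a rise of 5.17 (SE 0.27). SRGN, the proteoglycan core of secretory granules, was already at 8.75 and 8.42 and reached 13.63 and 13.22, a rise of 4.84 (SE 0.30). In all these genes the combination arrays did not overlap the IRF5-4D arrays, which the rule that named them required. In the upward direction that was true of 20.5% of all genes. In the downward direction it was true of 21.7%.

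MS4A1, the B cell surface protein CD20, went from 5.03 and 4.73 to 10.23 and 9.04, a rise of 4.76 (SE 0.46), and each of its other 3 probe sets was called as well. LAMP3, which marks lysosomes in matured dendritic cells, went from 4.23 and 4.05 to 9.54 and 8.20, a rise of 4.73 (SE 0.38). The MHC class II chain gene HLA-DQA1 read 7.30 and 6.73 with IRF5-4D and 11.95 and 10.99 in the combination, a rise of 4.46 (SE 0.41). That value rests on 1 probe set of a polymorphic family, and the other probe sets of HLA-DQA1 read -0.12 and 0.05. The long noncoding RNA LINC01857 rose by 4.38 (SE 0.32) from 4.46 and 4.62. SLAMF1, a costimulatory receptor of lymphocytes, rose by 4.00 (SE 0.51) from 5.99 and 5.37 to 10.48 and 8.88. It lost the call without IRF5-4D replicate 1 (4.31, adjusted p = 0.0551) and without IRF5-4D replicate 3 (3.69, adjusted p = 0.0935), while the other genes of these paragraphs kept it in all 8 fits.

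The next largest rises included the following genes. DAPP1, an adaptor of B cell receptor and PI3-kinase signalling, rose by 3.86 (SE 0.32), and HSD11B1, the enzyme that regenerates cortisol from cortisone, by 3.67 (SE 0.35). The translational regulator gene CPEB2 rose by 3.65 (SE 0.19) from 5.33 and 5.14 to 9.16 and 8.60, and TMCC3 by 3.26 (SE 0.33). GPR84, a receptor for medium-chain fatty acids, went from 3.84 and 3.65 to 7.21 and 6.43, a rise of 3.08 (SE 0.22). CLIC2, of the chloride intracellular channel family, rose by 2.93 (SE 0.37). DUSP4, a phosphatase that inactivates MAP kinases in the nucleus, rose by 2.95 (SE 0.26) from 6.22 and 6.36 to 9.70 and 8.77. It was the 1 called of 18 MAP kinase phosphatases and feedback genes, or 5.56%, against 1.41% of all genes. The epithelial cadherin CDH1 rose by 3.24 (SE 0.44) from 5.32 and 4.62 to 9.02 and 7.39, although its other probe set read -0.08. It lost the call without IRF5-4D replicate 1 (3.59) and without IRF5-4D replicate 3 (2.89). Both combination arrays were higher than both IRF5-4D arrays in each of these genes. The rule that named the largest rises required this, and it held for 20.5% of all genes.

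**Figure D2:**
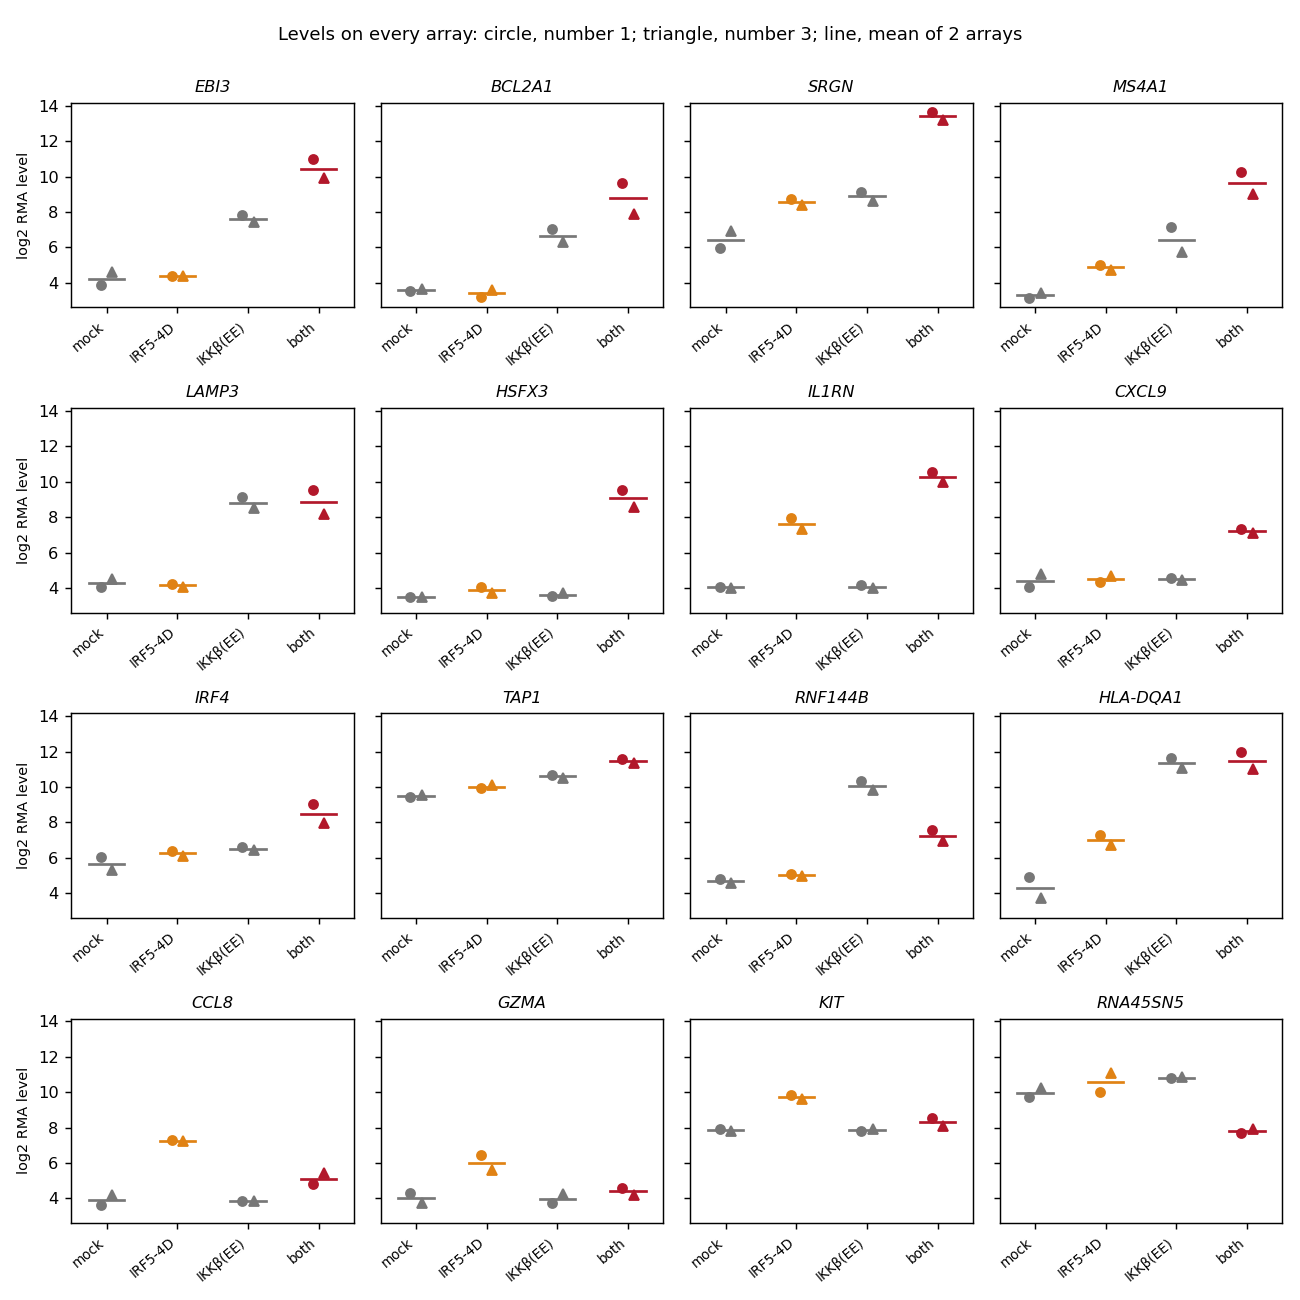
Log2 RMA level of 16 genes on every array, by group (mock, IRF5-4D, IKKβ(EE), both constructs); circles are arrays numbered 1, triangles arrays numbered 3, and lines the means of 2 arrays. EBI3 and BCL2A1 were near the mock level with IRF5-4D and high with both constructs, IL1RN and HSFX3 were highest with both, and CCL8, GZMA and KIT were highest with IRF5-4D.

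The NF-κB pathway itself was examined through 26 measured subunits, inhibitors and feedback genes, of which 4 rose, 0 fell and 22 did not pass. That is 15.4% called, against 1.41% of all genes. The median difference was 0.26, against -0.0056 over all genes. Of the 26, 23 lay above 0, as did 9624 of all 19775 genes. TRAF1, an adaptor of TNF receptors, went from 6.81 and 6.50 to 9.73 and 9.11, a rise of 2.77 (SE 0.30). TANK, an adaptor that binds TRAF proteins and TBK1, rose by 1.42 (SE 0.18) and TNIP2, a partner of the inhibitor A20, by 1.23 (SE 0.18). The p105/p50 subunit gene NFKB1 went from 9.55 and 9.54 to 10.47 and 10.36, a rise of 0.87 (SE 0.13). The count fell to 0 without IRF5-4D replicate 3 and reached at most 5 with 1 array left out. Without IRF5-4D replicate 3 TRAF1 read 2.61 and TANK 1.17. Without IRF5-4D replicate 1 TNIP2 read 1.26 and NFKB1 0.87, both past the threshold no longer.

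**Figure D3:**
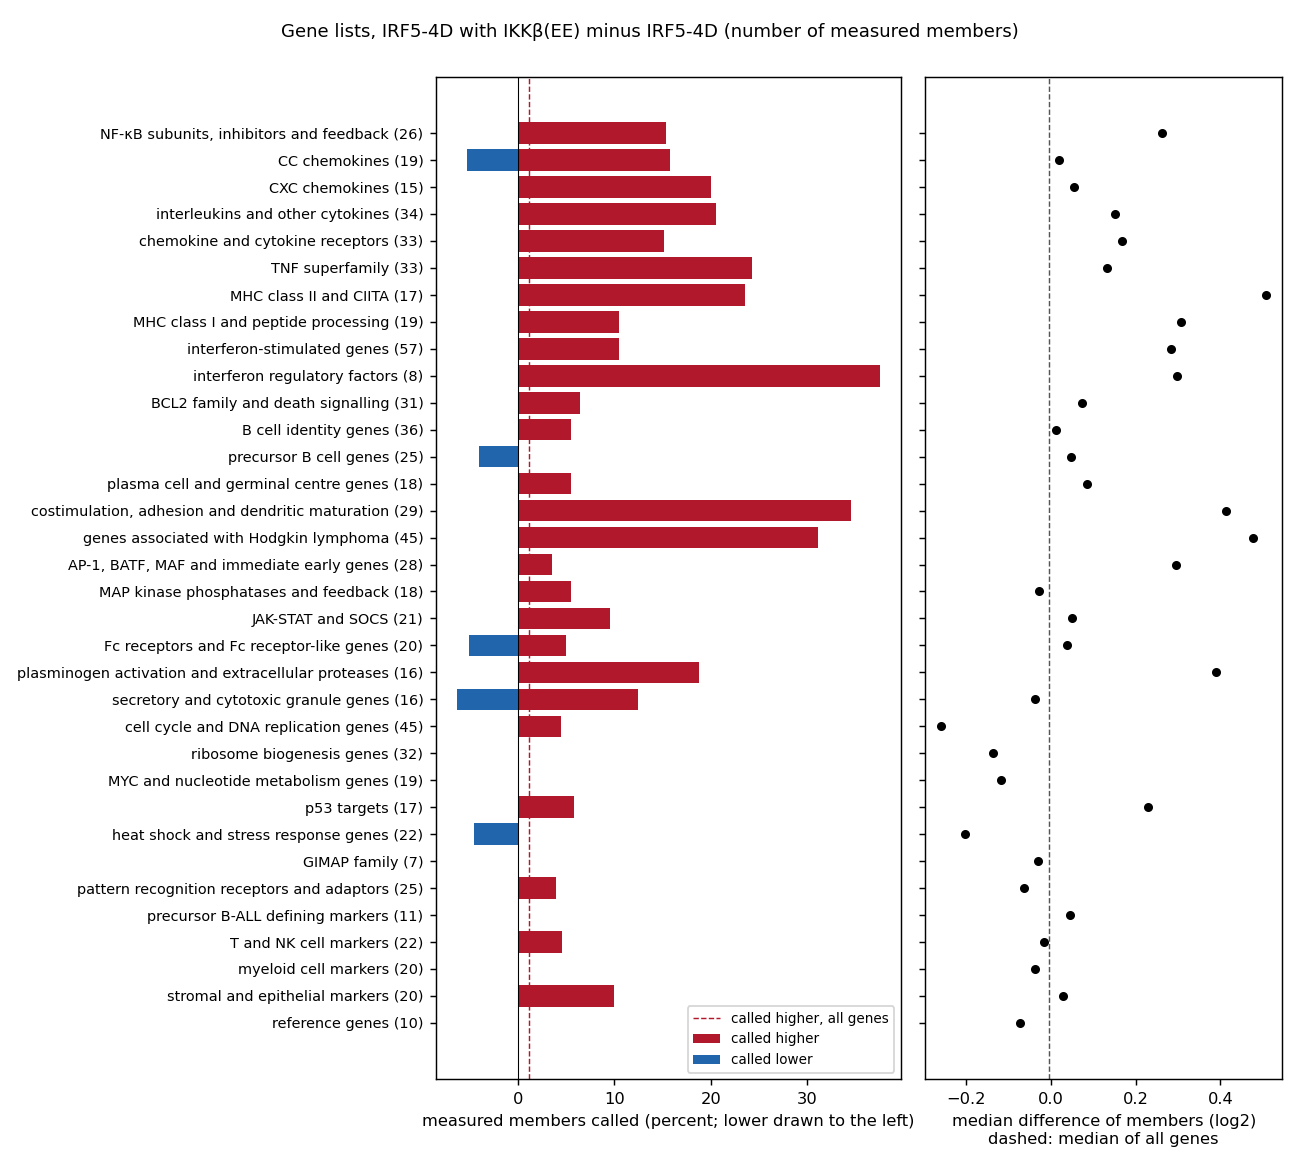
Gene lists, with the number of measured members in brackets: left, the percentage of members called higher (red) or lower (blue, drawn to the left), with the percentage of all genes called higher as a dashed line (1.22%); right, the median log2 difference of the members, with the median of all genes (-0.0056) as a dashed line. Interferon regulatory factors, costimulation genes and genes associated with Hodgkin lymphoma had the largest shares called higher, and the cell cycle list had the lowest median. Lists and members were chosen with earlier results of these data known, so the shares are descriptive only.

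Chemokines moved in both directions. Of 15 measured CXC chemokines 3 rose and 0 fell, or 20% called against 1.41% of all genes. These 3 were the ligands of CXCR3, which attract T cells and are induced by interferon. CXCL10 went from 5.56 and 4.79 to 8.93 and 7.74, a rise of 3.16 (SE 0.40), CXCL11 from 7.58 and 6.0 to 9.62 and 9.34, a rise of 2.69 (SE 0.45), and CXCL9 from 4.34 and 4.68 to 7.30 and 7.10, a rise of 2.69 (SE 0.23). CXCL9 kept the call in all 8 fits with 1 array left out. CXCL10 lost it without IRF5-4D replicate 3 (2.77, adjusted p = 0.0771), and CXCL11 lost it without IRF5-4D replicate 3 (1.90) and without either combination array (2.55 and 2.83). The median of the 15 was 0.05.

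Of 19 measured CC chemokines 3 rose and 1 fell, or 21.1% called against 1.41% of all genes. CCL2, which attracts monocytes, went from 7.38 and 7.41 to 9.54 and 9.21, a rise of 1.98 (SE 0.16) that held in all 8 fits. CCL5, which attracts T cells, was already at 11.39 and 11.03 and rose by 1.94 (SE 0.34) to 13.62 and 12.68, with like values of 1.81 and 2.05 on its other probe sets. CCL1, the ligand of CCR8, rose by 1.34 (SE 0.25) and held the call only without a combination array. CCL8, a relative of CCL2, went the other way, from 7.29 and 7.22 with IRF5-4D to 4.79 and 5.42 in the combination, a fall of 2.15 on the log2 scale (difference -2.15, SE 0.23, adjusted p = 0.00267). In all 8 fits CCL8 kept that call, and it read 3.60 and 4.17 in mock cells. CCL5 lost its call without IRF5-4D replicate 1 (2.12), IRF5-4D replicate 3 (1.76) or combination replicate 1 (1.47).

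CXCL9, CXCL10 and CXCL11 lie next to each other on chromosome 4, and their upstream sequences are printed with that of TAP1, described below, because these genes rose together and differ in the motifs they hold. Each run is the 250 bases before the annotated start, 5′ to 3′ on the gene's strand, which is the minus strand in all 4, from RefSeq on GRCh38.p14. Capitals mark matches on either strand to the κB consensus of 10 bases or to an IRF motif, GAAA followed by 2 free bases and GAAA. The windows are chr4:76007510-76007759 for CXCL9, chr4:76023498-76023747 for CXCL10, chr4:76036071-76036320 for CXCL11 and chr6:32853705-32853954 for TAP1.
CXCL9: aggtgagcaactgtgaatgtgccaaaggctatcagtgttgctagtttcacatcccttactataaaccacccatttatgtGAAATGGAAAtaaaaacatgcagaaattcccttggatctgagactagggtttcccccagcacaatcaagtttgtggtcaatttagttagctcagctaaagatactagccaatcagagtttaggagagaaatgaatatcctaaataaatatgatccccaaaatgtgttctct
CXCL10: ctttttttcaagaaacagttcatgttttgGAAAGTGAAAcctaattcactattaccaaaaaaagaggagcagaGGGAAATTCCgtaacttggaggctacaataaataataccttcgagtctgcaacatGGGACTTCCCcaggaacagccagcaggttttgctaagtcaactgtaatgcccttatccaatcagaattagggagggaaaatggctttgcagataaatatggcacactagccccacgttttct
CXCL11: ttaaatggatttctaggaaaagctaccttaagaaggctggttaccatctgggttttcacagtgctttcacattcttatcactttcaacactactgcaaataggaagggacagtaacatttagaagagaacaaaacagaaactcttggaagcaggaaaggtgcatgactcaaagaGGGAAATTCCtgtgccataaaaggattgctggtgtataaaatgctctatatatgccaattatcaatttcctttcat
TAP1: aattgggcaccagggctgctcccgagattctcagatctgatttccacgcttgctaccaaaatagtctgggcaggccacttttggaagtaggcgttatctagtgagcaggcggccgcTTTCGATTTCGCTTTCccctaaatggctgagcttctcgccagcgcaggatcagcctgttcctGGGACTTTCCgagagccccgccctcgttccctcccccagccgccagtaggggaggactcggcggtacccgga
In these windows CXCL9 holds 1 IRF match, which begins 171 bases before the start. CXCL10 holds 1 IRF match at 221 bases and κB matches at 177 and 122 bases, and CXCL11 holds 1 κB match at 76 bases. TAP1 holds 2 IRF matches that overlap each other, at 134 and 128 bases, and a κB match at 72 bases. A match is a description of the letters and no evidence of binding.

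Over windows that also took in 50 bases after the start, 182 of the 242 genes that rose and 32 of the 37 that fell had a RefSeq promoter. A κB match was present in 24 of the 182 (13.2%), against 6.47% of 15383 measured genes with a promoter and 5.72% of all 27303 promoters. An IRF match was present in 18 (9.89%), against 2.94% and 3.65%. Both motifs were present in 6, or 3.3%, against 0.195% and 0.176%; κB and IRF matches did not overlap in the named genes among them. The 6 were CXCL10, IL12A, TAP1, IFIH1, GBP4 and TAPBP, with rises from 0.67 to 3.16. Among the 32 genes that fell, 0 windows held either motif. These shares are descriptions with no test.

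Of 34 measured interleukins and other cytokines 7 rose, 0 fell and 27 did not pass, so 20.6% were called against 1.41% of all genes, and the median was 0.15. IL12A, the p35 chain of IL12 and IL35, went from 7.46 and 6.94 to 10.68 and 9.42, a rise of 2.85 (SE 0.34). It lost the call without IRF5-4D replicate 3 (2.59). IL1RN, the secreted antagonist of interleukin-1, was raised from 7.93 and 7.33 to 10.55 and 10.01, by 2.65 (SE 0.22), and 3 of its other 4 probe sets were called too. LIF, a cytokine of the interleukin-6 family, rose by 1.95 (SE 0.28), and lost the call without IRF5-4D replicate 1 (1.81) or replicate 3 (2.10). With EBI3 these are the 4 largest. The remaining called members, named beyond the rule so as to account for the list, were IL15 (1.31), the pyrogen IL1B (1.07) and IFNG (0.86), whose highest array read 4.89. With 1 array left out the count ranged from 3, without IRF5-4D replicate 3, to 9.

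Of 33 chemokine and cytokine receptors 5 rose and 0 fell, with a median of 0.17 and from 2 to 6 rises with 1 array left out. The share called with all arrays was 15.2%, against 1.41% of all genes. IL10RA, the ligand-binding chain of the interleukin-10 receptor, went from 3.99 and 3.69 to 6.99 and 6.36, a rise of 2.84 (SE 0.19). CCR7, the receptor for lymph node homing, went from 7.49 and 6.80 to 10.34 and 9.25, a rise of 2.65 (SE 0.38), which lost the call without IRF5-4D replicate 1 (2.99, adjusted p = 0.055) or replicate 3 (2.31, adjusted p = 0.121). IL4R rose by 1.45 (SE 0.13) and IL15RA by 1.13 (SE 0.16). The common gamma chain gene IL2RG rose by 0.84 and, like those below that carry no SE, is named beyond the rule to complete its list. Of these IL10RA and IL4R kept the call in all 8 fits. The lowest count of 2 came without either IRF5-4D array.

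The TNF superfamily had 8 rises and 0 falls among 33 measured members, a share of 24.2% against 1.41% of all genes called. The death receptor gene FAS went from 5.91 and 5.95 to 9.66 and 8.62, a rise of 3.21 (SE 0.35), and 3 of its other 4 probe sets were called. The costimulatory receptor TNFRSF9 (4-1BB) went from 4.66 and 4.50 to 7.28 and 7.34, a rise of 2.73 (SE 0.29), and its ligand TNFSF9 rose by 2.52 (SE 0.40). LTA, lymphotoxin alpha, went from 9.14 and 9.09 to 11.40 and 10.70, a rise of 1.93 (SE 0.20). The other called members were TNFSF4, the ligand of OX40, at 1.73, CD40 at 1.36, CD70 at 1.27 and TNFRSF14 at 0.89. The median of the list was 0.13. FAS, TNFRSF9 and LTA kept the call in all 8 fits, while the count fell to 3 without IRF5-4D replicate 1 or replicate 3, where TNFSF9 read 2.71 and 2.34.

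Of 31 BCL2 family and death signalling genes 2 rose and 0 fell, or 6.45% called against 1.41% of all genes. Both genes that rose protect from cell death. Beside BCL2A1 this was CFLAR, the inhibitor of caspase-8, which went from 8.27 and 8.32 to 11.44 and 10.53, a rise of 2.69 (SE 0.24). Of the other 13 CFLAR probe sets 9 were called higher. The median of the list was 0.07 and the count was 2 in all 8 fits with 1 array left out. FAS was the 1 of 17 p53 targets called, or 5.88%, against 1.41% of all genes.

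MHC class II and CIITA genes had a median of 0.51, with 15 of 17 above 0 and 23.5% called, against 1.41% of all genes. Of the 17, 4 rose and 0 fell. After HLA-DQA1 these were HLA-DOB, from 5.58 and 5.56 to 7.53 and 6.73 (1.56, SE 0.26), HLA-DQB1 (1.02, SE 0.14) and HLA-DOA, from 9.50 and 9.51 to 10.32 and 10.35 (0.82, SE 0.11). The HLA-DO chains restrain peptide loading by HLA-DM. Without IRF5-4D replicate 1 or replicate 3 only 1 member was called, and HLA-DQB1 lost its call without cross-hybridising probe sets. Of 19 MHC class I and peptide processing genes 2 rose, or 10.5% called against 1.41% of all genes. The median was 0.31. TAP1, the peptide transporter subunit, went from 9.92 and 10.10 to 11.57 and 11.36, a rise of 1.46 (SE 0.13) that held in all 8 fits. TAPBP, which bridges that transporter to class I molecules, rose by 0.67 (SE 0.12), and the count with 1 array left out ran from 1 to 4.

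Of 57 interferon-stimulated genes 50 lay above 0, with a median of 0.28. Of the 57, 6 rose and 0 fell, or 10.5% called against 1.41% of all genes. LAMP3, which also belongs to the dendritic maturation list, was the largest of them. EPSTI1 went from 4.34 and 3.63 to 6.26 and 5.75, a rise of 2.02 (SE 0.24). The guanylate-binding protein gene GBP2 rose by 1.51 (SE 0.19) and the RNA sensor gene IFIH1 (MDA5) by 1.26 (SE 0.24). GBP5 at 0.88 and GBP4 at 0.85 were the others. Only 2 were called without IRF5-4D replicate 1 or replicate 3, and at most 7 with another array left out.

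Of 8 measured interferon regulatory factors 3 rose, or 37.5% called against 1.41% of all genes. All 8 lay above 0, with a median of 0.30. IRF4, a factor of activated B cells and plasma cells, went from 6.37 and 6.12 to 9.03 and 7.94, a rise of 2.24 (SE 0.33). IRF9, the DNA-binding part of the interferon-activated complex ISGF3, went from 6.97 and 6.89 to 8.50 and 8.98, a rise of 1.81 (SE 0.18). The third was IRF5, described above, which read 6.93 and 7.06 in mock cells. The labels do not say whether its probe set reads the construct, so its rise may not be that of the cell's own gene. IRF9 kept the call in all 8 fits. IRF4 lost it without IRF5-4D replicate 1 (2.37) and replicate 3 (2.11), and with the mean of all its probe sets the difference was 0.99 and not called. IRF5 likewise read 0.29 with that mean, 0.66 without IRF5-4D replicate 1 and 0.77 without IRF5-4D replicate 3, none of them called.

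Costimulation, adhesion and dendritic maturation genes had 10 rises and 0 falls among 29 measured members, or 34.5% against 1.41% of all genes. The median was 0.41. Members of the list were chosen with earlier results of these data known, so its share is descriptive only. After LAMP3, SLAMF1 and CCR7 the largest were ICAM1, the ligand of the integrin LFA-1, from 7.69 and 7.13 to 9.86 and 9.43 (2.24, SE 0.34), and RNF144B, an E3 ubiquitin ligase, from 5.07 and 4.96 to 7.55 and 6.92 (2.22, SE 0.23). CD274, which encodes PD-L1, went from 4.34 and 3.84 to 5.66 and 5.50 and rose by 1.49. CD40 is given above, CD83 rose by 1.24, CD200 by 0.83 and SLAMF7 by 0.80. The count was 2 without IRF5-4D replicate 3 and at most 10. Among these 10, LAMP3 and RNF144B kept the call in all 8 fits, although RNF144B was not called with the mean of its probe sets (0.68). ICAM1 read 2.52 without IRF5-4D replicate 1 and 1.96 without IRF5-4D replicate 3.

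Of 45 genes associated with Hodgkin lymphoma 14 rose and 0 fell, a share of 31.1% against 1.41% of all genes. The median was 0.48. The list was drawn from the literature on that disease and includes NF-κB and JAK-STAT genes. Its members were chosen with earlier results of these data known, so its share is descriptive only. Its called members were BCL2A1, CXCL10, TRAF1, CFLAR, CCR7, IRF4, GATA3, CCL5, LTA, CD274, CD40, BATF3, STAT5A and STAT3. GATA3, a T cell factor that is aberrantly expressed in the tumour cells, went from 8.12 and 7.81 to 10.58 and 9.51, a rise of 2.08 (SE 0.32), and its other probe sets were called at 1.92 and 2.45. BATF3, an AP-1 family factor, rose by 1.02 (SE 0.12), STAT5A by 0.72 (SE 0.13) and STAT3 by 0.62 (SE 0.11). The count was 4 without IRF5-4D replicate 3 and at most 15, and STAT5A and STAT3 lost the call under median centring. BATF3 was also the 1 called of 28 AP-1, BATF, MAF and immediate early genes, or 3.57%, against 1.41% of all genes. It lost the call without IRF5-4D replicate 1 (0.89). Called in the GIMAP list were 0 of 7 genes. Of 21 JAK-STAT and SOCS genes STAT5A and STAT3 were the 2 called, or 9.52%, against 1.41% of all genes. Neither was called without either IRF5-4D array, either IKKβ(EE) array or combination replicate 1, where STAT5A read 0.57 to 0.72 and STAT3 0.57 to 0.65. GATA3 read 2.23 without IRF5-4D replicate 1 and 1.92 without IRF5-4D replicate 3, where it was not called.

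Calls in the B lineage lists made up 5.56% of B cell identity genes, 4% of precursor B cell genes and 5.56% of plasma cell and germinal centre genes, against 1.41% of all genes. Of 36 B cell identity genes 2 rose, MS4A1 and the kinase gene LYN, which went from 8.76 and 8.72 to 10.62 and 10.02 (1.58, SE 0.18), and the median was 0.01. LYN lost the call without IRF5-4D replicate 1 (1.61, adjusted p = 0.055) and replicate 3 (1.56, adjusted p = 0.0568). Of 25 precursor B cell genes 0 rose and 1 fell, the receptor gene KIT described below, and of the 11 defining markers of the leukaemia 0 were called, with BLNK at 0.35 and CD22 at -0.22. Of 18 plasma cell and germinal centre genes IRF4 was the 1 called. Of 20 Fc receptors and Fc receptor-like genes FCER1G rose and FCGR2B fell, or 10% in all. FCER1G, the signalling chain shared by several Fc receptors, went from 6.55 and 6.34 to 9.43 and 8.70, a rise of 2.62 (SE 0.21), and its other probe set read 3.36.

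Plasminogen activation and extracellular protease genes had 3 rises and 0 falls among 16, or 18.8% called against 1.41% of all genes. The median was 0.39. PLAT, the tissue plasminogen activator, went from 4.25 and 3.85 to 7.47 and 6.32, a rise of 2.85 (SE 0.31), and PLAU, the urokinase, from 6.84 and 6.87 to 9.76 and 9.03, a rise of 2.54 (SE 0.27). SERPINE2, an inhibitor of both enzymes, rose by 2.00 (SE 0.14) from 4.52 and 4.38. All 3 kept the call in the 8 fits that left out 1 array. Of 16 granule genes SRGN and NKG7 rose and GZMA fell, or 18.8% called against 1.41% of all genes. NKG7, a granule membrane protein of cytotoxic cells, rose by 1.34 (SE 0.19). IRAK2, a kinase of Toll-like and interleukin-1 receptor signalling, went from 6.33 and 5.60 to 8.40 and 7.84 (2.16, SE 0.25). It was the 1 called of 25 pattern recognition genes, or 4%, against 1.41% of all genes. ACTA2, a smooth muscle actin, rose by 1.25 (SE 0.15) and lost the call without IRF5-4D replicate 1 (1.26, adjusted p = 0.0559) or replicate 3 (1.23, adjusted p = 0.057). NKG7 lost its call without IRF5-4D replicate 3 (1.16, adjusted p = 0.108).

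The D-type cyclin genes CCND2 and CCND1 rose, while most other cell cycle genes lay below 0. CCND2 went from 5.76 and 5.52 to 9.05 and 7.90, a rise of 2.84 (SE 0.30) that held in all 8 fits, and CCND1 from 5.03 and 4.99 to 7.01 and 6.13, a rise of 1.56 (SE 0.27). CCND1 lost the call without IRF5-4D replicate 1 (1.58, adjusted p = 0.192), IRF5-4D replicate 3 (1.54, adjusted p = 0.186) or combination replicate 1 (1.11, adjusted p = 0.0631). Of 45 cell cycle and DNA replication genes 7 lay above 0, against 9624 of all 19775 genes. The median of the 45 was -0.26, none fell past the test, and 4.44% were called, against 1.41% of all genes. Ribosome biogenesis genes had 7 of 32 above 0 and a median of -0.14, and MYC and nucleotide metabolism genes 4 of 19 and a median of -0.12. Neither list had a call, with POLR1C at -0.48 (adjusted p = 0.141) and MNT at -0.39 (adjusted p = 0.378) as the largest values. Median centring of the arrays lowers every difference by 0.07, so these medians would lie lower still. The 10 reference genes had 0 calls and a median of -0.07.

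The largest fall was read by the probe set annotated to RNA45SN5, the ribosomal RNA precursor. It lay at 10.01 and 11.09 with IRF5-4D and at 7.68 and 7.89 in the combination, a difference of -2.77 (SE 0.30, limma adjusted p = 0.003), and its other probe set read -1.95 and was called as well. RASSF10, of the RAS association domain family, went from 6.58 and 6.15 to 4.77 and 4.82 (-1.57, SE 0.17), and SOX1, a transcription factor gene of neural progenitors, from 8.65 and 8.38 to 6.90 and 7.22 (-1.46, SE 0.16). With CCL8 these were the 4 falls that kept the call in all 8 fits. SOX1 rests on 1 of 3 probe sets, and the others read -0.04 and 0.29. CNNM2, a magnesium transport gene, read -1.54, the kinesin gene KIF9 -1.34, the kinase gene SIK1 -1.24, the cytoskeletal gene SHROOM3 -1.17 and the RNA-binding gene RBM12 -1.07. EMP1, a membrane protein gene, read -1.82 (SE 0.33). Each of these 6 lost the call without IRF5-4D replicate 1. In that fit CNNM2 read -1.41, KIF9 -1.45, SIK1 -1.20, SHROOM3 -0.91, RBM12 -0.92 and EMP1 -1.38. Each also lost it without at least 1 combination array, and all but SHROOM3 without IRF5-4D replicate 3. RBM12 lost it without either IKKβ(EE) array as well.

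Several genes that fell stood higher with IRF5-4D than in mock cells. KIT, the stem cell factor receptor, read 7.93 and 7.80 in mock cells, 9.84 and 9.61 with IRF5-4D and 8.56 and 8.08 in the combination, a difference from IRF5-4D of -1.41 (SE 0.17). The granzyme gene GZMA read 4.32 and 3.74 in mock cells, 6.42 and 5.59 with IRF5-4D and 4.61 and 4.19 in the combination (-1.61, SE 0.30). HSPA6, the inducible HSP70 relative, read 5.21 and 5.06, then 6.96 and 7.10, then 6.10 and 6.19 (-0.88, SE 0.12). It was the 1 called of 22 heat shock and stress genes, or 4.55%, against 1.41% of all genes. FCGR2B, the inhibitory Fc receptor, read 3.81 and 3.90, then 5.07 and 4.73, then 3.92 and 3.97 (-0.96, SE 0.14). In all 4 genes and in CCL8 the IRF5-4D arrays lay above every other array of the series. These genes were named for a fall from IRF5-4D, which by itself favours high values on those arrays. The share of all genes with this order was not counted. The comparisons with mock and with the combination share the IRF5-4D arrays. Without IRF5-4D replicate 1 KIT read -1.30, GZMA -1.20, HSPA6 -0.95 and FCGR2B -0.79, and each lost the call. GZMA also lost it without IRF5-4D replicate 3 (-2.02), either combination array (-1.81 and -1.40) or either IKKβ(EE) array (-1.61). HSPA6 also lost it without IRF5-4D replicate 3 (-0.81) or combination replicate 1 (-0.83), and FCGR2B without combination replicate 1 (-0.94).

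The same kinase construct was also added to mock cells, a comparison that shares no array with the one described here. The IKBKB probe set that reads that construct showed 12.57 and 10.98 with IKKβ(EE) alone against 11.11 and 9.33 in the combination. The ranges overlap, although each combination array read lower than the IKKβ(EE) array of the same number. A difference in construct level is neither shown nor excluded. That probe set rose by 7.35 without IRF5-4D and by 5.58 with it (interaction -1.77, SE 0.84, limma adjusted p = 0.809 in the fit of every probe set). The part of this gap in the comparisons below was not tested. In the comparison with mock 102 genes rose and 0 fell in limma (0.516% of all genes). Of these, 45 rose in both, which is 18.6% of the genes that rose on top of IRF5-4D and 44.1% of those that rose on top of mock. Of the 45, 18 had the larger value with IRF5-4D, and 2 were called in the interaction described below. Of the 102, 84 had a smaller value with IRF5-4D than without it. The 102 were chosen by a high value without IRF5-4D, which by itself favours smaller values in the other comparison. The count of 84 therefore does not show a weaker response. EBI3 rose by 6.07 with IRF5-4D and by 3.38 without it, BCL2A1 by 5.38 and 3.07, SRGN by 4.84 and 2.44, MS4A1 by 4.76 and 3.15 and LAMP3 by 4.73 and 4.54. CCR7 rose by 2.65 with IRF5-4D and 3.32 without, CCL2 by 1.98 and 2.87, PLAU by 2.54 and 2.59, ICAM1 by 2.24 and 2.51 and NFKB1 by 0.87 and 0.91. None of the differences between these pairs passed the interaction test, in which adjusted p ran from 0.125 for EBI3 and SRGN to 0.995 for PLAU and NFKB1. The median SE of that test over all genes was 0.20. For the genes of these pairs it ran from 0.19 for NFKB1 to 0.65 for BCL2A1 and MS4A1, with 0.48 for EBI3 and 0.43 for SRGN. A pair that was not called is therefore not shown to be equal.

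The interaction is the difference with IRF5-4D minus the difference without it, and 25 genes were called in it (0.126% of all genes), 19 above 0 (0.0961%) and 6 below (0.0303%), of which 22 were also called in the combination against IRF5-4D. Those above 0 rose with IRF5-4D and were not called without it. HSFX3 rose by 5.17 with IRF5-4D and read 0.11 without it, an interaction of 5.06 (limma adjusted p = 0.00576). LINC01857 rose by 4.38 against 0.59, HSD11B1 by 3.67 against -0.05, TMCC3 by 3.26 against 0.00, GPR84 by 3.08 against -0.01 and DUSP4 by 2.95 against -0.12. CXCL9, IL1RN, IL10RA, FCER1G, CPEB2 and SERPINE2 were called as well. Leaving out IRF5-4D array 1 or 3 left 2 and 0 calls, IKKβ(EE) array 1 or 3 left 2 and 3, mock array 1 left 14, and the fit that omitted combination array 3 had 80. Among genes above the median level it was 0, with 1206 genes at an unadjusted p under 0.05 in the fit of all genes.

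RNF144B gained less on top of IRF5-4D than on top of mock. It read 4.82 and 4.59 in mock cells, 10.36 and 9.81 with IKKβ(EE), 5.07 and 4.96 with IRF5-4D and 7.55 and 6.92 in the combination, so it rose by 2.22 with IRF5-4D and by 5.38 without it (interaction -3.16, limma adjusted p = 0.0155). INHBA, a subunit of activins, read 0.46 with IRF5-4D, which was not called, and rose by 2.13 without it, and AFTPH-DT read 0.07 and 1.91. The immunoglobulin lambda genes IGLC1 and IGLV1-44 read 0.98 and 0.88 with IRF5-4D and 3.12 and 2.63 without it, on probe sets that bind several related genes. RNA45SN5 fell with IRF5-4D and read 0.85, not called, without it.

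**Figure D4:**
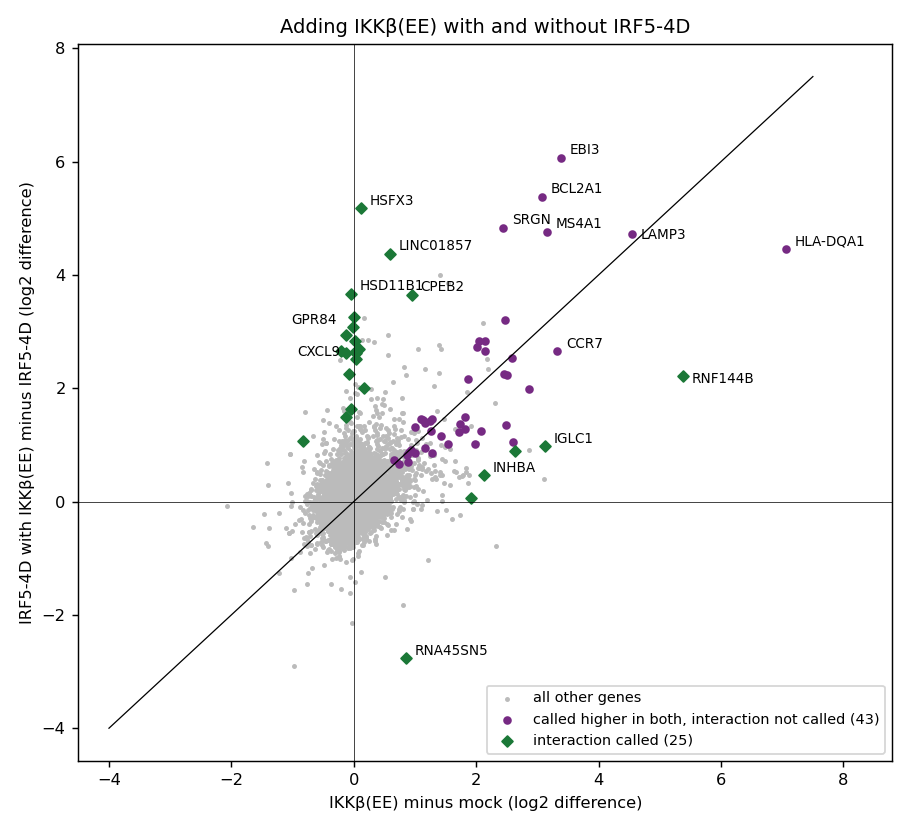
Log2 difference made by IKKβ(EE) without IRF5-4D (horizontal axis) and with it (vertical axis) for each gene; the line marks equal differences. The 43 genes called higher in both with no interaction call (purple) spread around the line, while of the 25 genes called in the interaction (green) 19 lie above the line, with horizontal values from -0.83 (ACKR3) to 0.95 (CPEB2).

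The 2 combination arrays differed in the size of the rises. In 189 of the 242 genes that rose, array 1 read above array 3, with a median gap of 0.29, whereas among 19496 genes that were not called array 1 was higher in 9575 and the median gap was -0.0039. With IRF5-4D alone array 1 was higher in 137 of the 242, with a median gap of 0.04. The IKBKB probe set that reads the construct showed 11.11 on combination array 1 and 9.33 on array 3. BHLHE41, a circadian repressor gene that read 5.81 and 6.17, was among the genes higher on array 3. The part of the construct level in the gap was not tested.

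**Figure D5:**
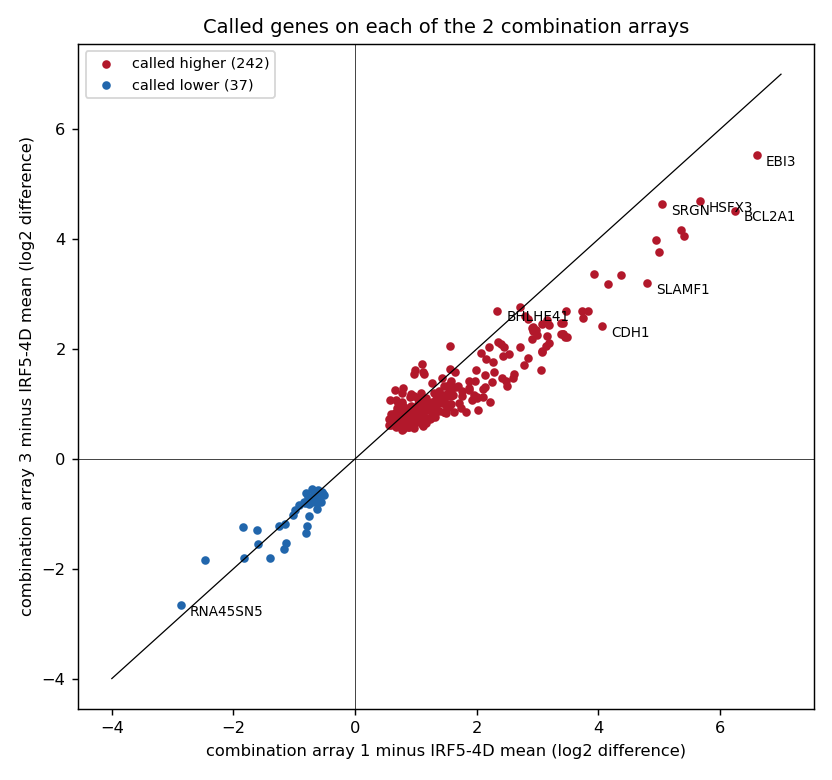
For the 242 genes called higher (red) and the 37 called lower (blue), the log2 level on combination array 1 (horizontal axis) and on combination array 3 (vertical axis), each minus the mean of the 2 IRF5-4D arrays; the line marks equal values. Most red points lie below the line, as array 1 read above array 3 in 189 of them.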

How the data were processed

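Per the submitters' processing notes, the authors made the deposited log2 values with RMA, which corrects background, quantile-normalizes between arrays and summarises probe sets; the labels state neither its version nor a chip definition. Of 54675 probe sets, 62 Affymetrix controls and 13522 without exactly 1 symbol in GEO's platform annotation were left out. For each of 19775 genes the probe set of highest average level was used (10523 genes had several), with no filter on level; the number of arrays limits the precision. Levels near the lower quartile are not shown to lie above background.

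All 8 arrays entered 1 linear model with a mean for each of 4 groups, using lmFit and eBayes in limma 3.58.1 (R 4.3.3), with 4 residual degrees of freedom, and checked on simulated data. Named genes were both construct genes, the 20 largest rises and 12 largest falls with separate arrays, up to 6 interaction values each way, and up to 4 called members (otherwise 2 values) of 34 gene lists. Genes outside the rule are given to complete a list, the interaction or a figure. Members and lists were chosen with earlier results of these data known. List members absent from the table were not analysed here. Alternatives changed the probe set rule, the filter, scaling, variance model, arrays fitted, block and threshold.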

Additional observations from a re-analysis of the deposited data

Results flagged for a closer look

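The effect of adding IKKβ(EE) differed with and without IRF5-4D, by limma's interaction test at an adjusted p under 0.05, in 15 genes named under the rule. The differences with IRF5-4D exceeded those without it by 5.06 for HSFX3, 3.79 for LINC01857, 3.72 for HSD11B1, 3.26 for TMCC3, 3.09 for GPR84 and 3.07 for DUSP4 on the log2 scale. They also exceeded them by 2.82 for IL10RA, 2.70 for CPEB2, 2.62 for IL1RN, 2.60 for CXCL9, 2.59 for FCER1G and 1.83 for SERPINE2. Negative values were read for RNA45SN5 (-3.62), RNF144B (-3.16) and IGLV1-44 (-1.74). Few interaction calls remained when an IRF5-4D or IKKβ(EE) array was left out, and a fit of genes above the median level had 0. The IGLV1-44 probe set binds several related genes, and the RNF144B rise was not called with the mean of its probe sets.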

How the results depend on the processing

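With 1 array left out, the genes that rose numbered 60 to 248 (242 with all arrays), those that fell 4 to 38 (37), the interaction calls 0 to 80 (25), the genes called with IKKβ(EE) against mock 30 to 116 (102) and the genes higher in both 13 to 47 (45). The following changes are given in that order of counts where they moved by over 1.5 times. Averaging each gene over its probe sets left 21 falls, 9 interaction calls, 56 genes against mock and 21 in both, and every probe set on its own gave 77 falls. Among genes above the median level there were 128 rises, 22 falls and 0 interaction calls. A fit of only the groups compared gave 136 rises, 13 falls and 28 genes in both; this alternative does not apply to the interaction. A 2-fold minimum left 154 rises and 14 falls, and an adjusted p under 0.1 gave 387 rises, 97 falls, 40 interaction calls, 162 genes against mock and 73 in both. Median centring gave 177 rises and 53 falls, so 77.0% of calls were rises against 86.7%, and quantile normalization of the gene table gave 194 and 40. IGLV1-44 read 0.88 with all probe sets and turned to -0.0766 without probe sets marked _x_at.

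The numbers 1 and 3 were used as a replicate block in an alternative fit, which gave 364 rises, 82 falls, 56 interaction calls, 191 genes against mock and 87 in both, and kept all 242 rises and 37 falls. Deviations of same-numbered arrays correlated at 0.11 between the combination and IRF5-4D and from -0.073 to 0.34 over all pairs of groups, and the labels do not say what the numbers mark, so the arrays were not treated as pairs.

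Of 81 called named genes 38 kept the call in all 8 fits with 1 array left out and 48 in the 13 other alternatives where they were tested. With 2 arrays a group the spread rests on few arrays.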
